A study of Mus musculus with 28 samples.

Results

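Elastin, the fibrillins, the fibulins and the microfibril-associated proteins build the elastic fibre. The 10 genes Eln, Fbn1, Fbn2, Fbln1, Fbln2, Fbln5, Efemp1, Efemp2, Mfap4 and Mfap5 were chosen by name, and all 10 were found among the 25719 gene identifiers counted in 28 tail tendon libraries. Each library was made from the tail tendon fascicles of 1 C57BL/6 mouse. The early cohort held 7 wild-type (WT) and 8 Fosl-2(Tg) mice, all male and 6 to 8 weeks old. The established cohort was older than 14 weeks and held 6 WT mice (5 female and 1 male) and 7 Fosl-2(Tg) mice (6 female and 1 male). Fosl-2(Tg) mice carry the murine Fosl2 gene, which encodes a subunit of the transcription factor AP-1, inserted at random under the H2Kb promoter, a promoter of MHC class I active in most cell types, followed by an eGFP marker. The controls were nontransgenic mice of the same breeding. Stage, age and, but for 2 mice, sex changed together, so that a difference between the cohorts cannot be assigned to any one of them.

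In an elastic fibre, crosslinked elastin fills a core that is laid on a scaffold of fibrillin microfibrils. Fibulins join elastin to the microfibrils and bring the crosslinking enzymes of the lysyl oxidase family to it. In tendon, elastic fibres run between the collagen fascicles and around the tendon cells, and fibrillin microfibrils also hold latent TGF-β in the matrix. Transcript levels are given below as CPM (counts of a gene per 1000000 counts) after TMM scaling over the 28 libraries, which corrects for a few very abundant genes. These are bulk values, in which fewer cells of a type and less RNA per cell cannot be told apart.

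The libraries held 9645598 to 66894396 counts. Fosl2 itself was at 78.07 to 169.4 CPM in the established WT mice and 121 to 160.1 CPM in the established Fosl-2(Tg) mice (log2 fold change 0.38 ± 0.15 SE, edgeR adjusted p = 0.141). In the early cohort it was at 58.79 to 136.2 CPM in WT and 63.36 to 156.2 CPM in Fosl-2(Tg) mice (0.20 ± 0.24 SE, adjusted p = 0.918), so that its counts do not check the genotype labels. Markers of tendon cells were present in every library, with Scx at 6.64 CPM or more and Tnmd at 21.15 CPM or more, while the keratinocyte markers Krt5 and Krt14 were at 0.289 CPM or less. Skeletal muscle markers varied widely, with their 8 genes summing to between 39.39 and 15940 CPM. Early WT replicates 1 to 3 and early Fosl-2(Tg) replicate 1, whose library names carry the 4 lowest numbers of the series, stood apart from the other 11 early libraries. Of the 15138 genes tested in the early cohort, 10.3% did not overlap between those 4 and the 11 others, 5.31% with the 4 higher and 5.03% with the 4 lower. The labels do not say what a library number stands for, and the calls that involve them are given with and without them.

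Eln fell in the established Fosl-2(Tg) tendons, and it was the only one of the 10 genes that passed the test between the genotypes. None of the 10 passed it in the early cohort. Mfap4 was the only one that passed between early and established WT tendons, where it fell. Fbln1 took 2 separate levels within the early cohort, and Fbn2 varied most from mouse to mouse, with the widest ratio of highest to lowest level among the 10 genes in each of the 4 groups. A gene is called here when its false discovery rate, the Benjamini-Hochberg adjusted p of edgeR's quasi-likelihood test over all genes tested, was at most 0.05.

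**Figure D1:**
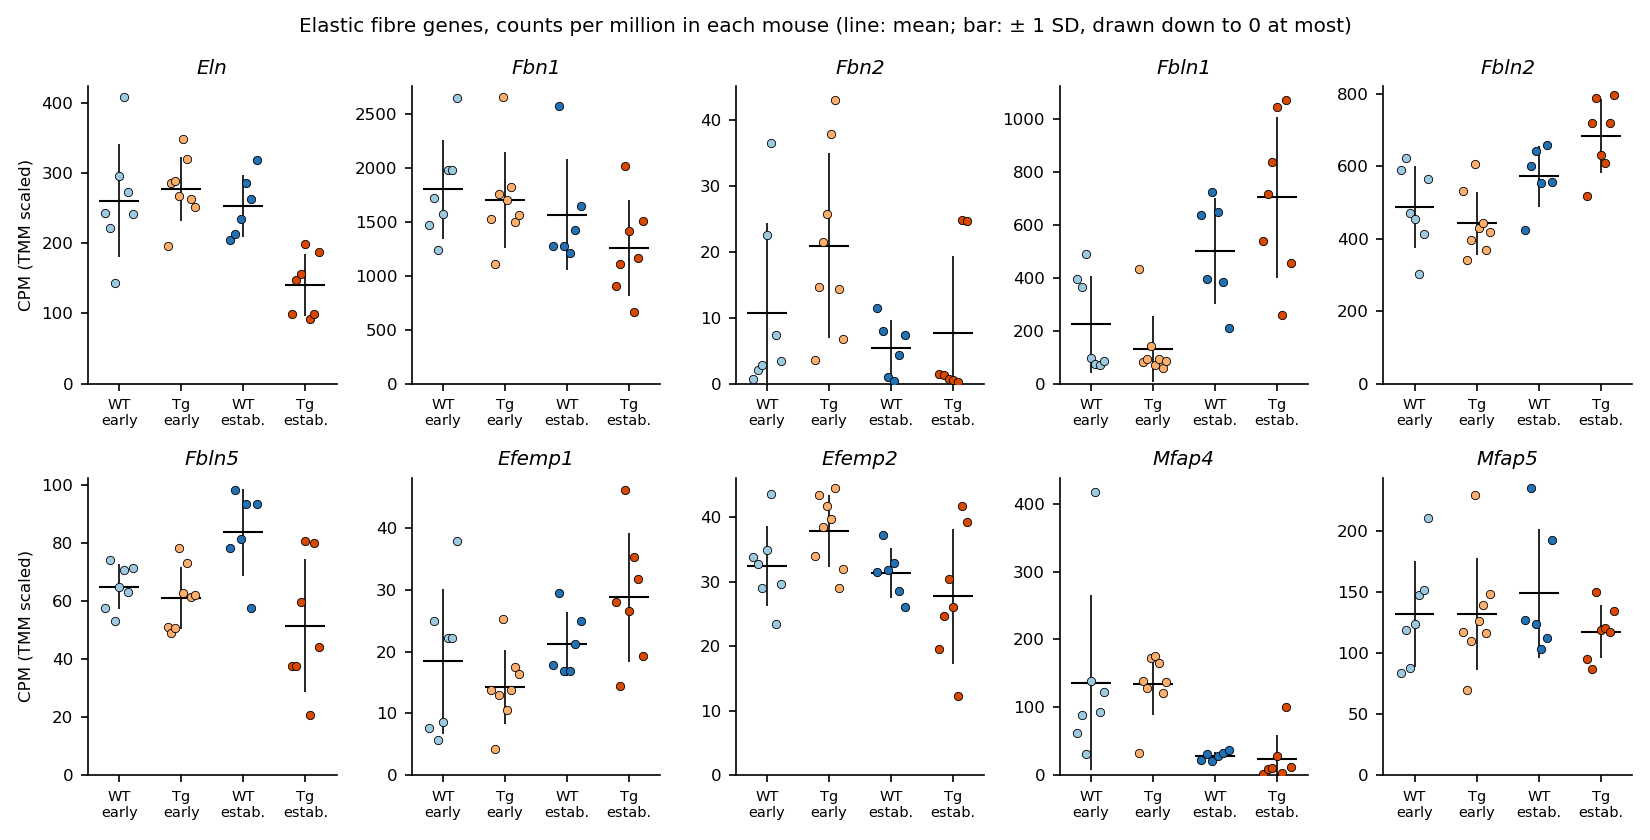
CPM of the 10 genes (vertical axes, linear, each from 0) in every mouse of the 4 groups; points are mice, horizontal lines the group means and vertical bars 1 SD to each side, stopped at 0. Eln in the 7 established Fosl-2(Tg) mice sits at 92.52 to 198.9 CPM, below all 6 established WT mice, and the early Fbln1 values fall into a high and a low set of libraries.

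Per annotated exon length, Fbn1, the main fibrillin of adult tissue, was the leading member in the early tendon. It reached 148.7 ± 37.9 CPM per kilobase of exon (SD, n = 7) in early WT mice, against 69.5 ± 16.04 for Fbln2, and it was above Fbln2 in 7 of 7 mice with no overlap of the 2 ranges. Mfap4, Fbln1 and Eln followed at means of 58.0 ± 54.99, 49.0 ± 39.95 and 31.5 ± 9.78 CPM per kilobase (SD), and neighbours in that order overlapped. Mfap4 was above Fbln1 in 4 of 7 mice, and Fbln1 above Eln in 3 of 7. The Fbln1 mean lies between 2 levels, 79.94 to 106.5 in replicates 1 to 3 and 14.99 to 21.07 CPM per kilobase in the other mice. The Mfap4 mean includes replicate 5 at 177.8 CPM per kilobase. Mfap5 came next at 19.1 and Fbln5 at 8.91 CPM per kilobase, and these did not overlap. Efemp2, Efemp1 and Fbn2 closed the order. In the established WT tendon Fbln1 stood at 109.1 ± 43.5 CPM per kilobase (SD, n = 6) beside Fbn1 at 129.2 ± 42.7, and Fbn1 was the higher of the pair in 3 of 6 mice. In the established Fosl-2(Tg) tendon the order of this pair was turned in level, with Fbln1 at 153.3 ± 66.3 and Fbn1 at 103.6 ± 36.5 CPM per kilobase (SD, n = 7) and Fbln1 higher in 6 of 7 mice, although their ranges overlapped. Eln was at 30.7 ± 5.33 CPM per kilobase in established WT mice, next above Mfap5 and higher than it in 5 of 6 mice. In established Fosl-2(Tg) mice Eln, at 16.9 ± 5.34, and Mfap5, at 17.0 ± 3.11, had nearly the same mean, with Mfap5 higher in 4 of 7 mice. The ranges of Eln and Mfap5 overlapped in both groups. The 10 genes together summed to a mean of 3211 ± 508 CPM in established WT (SD, n = 6) and 3038 ± 791 CPM in established Fosl-2(Tg) mice (SD, n = 7). As a share of the counts without TMM scaling they made up 0.341 ± 0.0483% and 0.402 ± 0.0877%, so the direction of this sum depends on the scaling.

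Eln encodes tropoelastin, the soluble precursor of the elastic core, and lies on chromosome 5 (GRCm39, 134731445 to 134776322, minus strand). It had a lowest, median and highest level of 205, 248.7 and 318.5 CPM in the 6 established WT mice. In the 7 established Fosl-2(Tg) mice these were 92.52, 147.5 and 198.9 CPM. Every Fosl-2(Tg) mouse was thus below every WT mouse, with 3 of them (replicates 1, 5 and 6) under 100 CPM. The mean fell from 253.2 ± 44.0 (SD, n = 6) to 139.9 ± 44.1 CPM (SD, n = 7), a log2 fold change of -0.85 ± 0.20 (SE), or 1.80-fold lower (edgeR adjusted p = 0.0268). The size of the change was under a log2 fold change of 1. This was 1 of 10 members called, 10% of them, where 6.51% of the 15862 genes tested were called in this comparison, 3.14% upwards and 3.37% downwards. Groups that did not overlap, with Fosl-2(Tg) lower, were seen for 2.33% of all genes.

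In the early cohort Eln was at 142.9, 242.5 and 407.8 CPM (lowest, median, highest) in WT mice and at 196, 276.3 and 347.8 CPM in Fosl-2(Tg) mice. The groups overlapped along their whole range, and the difference was 0.09 ± 0.17 (log2, SE; edgeR adjusted p = 0.946; 95% interval -0.24 to 0.42). The 2 genotype effects differed from each other by -0.95 ± 0.27 (log2, SE; edgeR interaction adjusted p = 0.0329). Eln was the only member called for this difference, for which 7.43% of 16082 genes were called 3.43% upwards and 4% downwards. In WT mice Eln differed with stage by little beside its error (-0.04 ± 0.19, adjusted p = 0.926), with an interval of -0.42 to 0.34. The established WT mice enter the genotype comparison, the stage comparison and the interaction alike, so that these 3 values are not independent.

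The call on Eln lay near the threshold. Without established Fosl-2(Tg) replicate 1 its adjusted p was 0.0536, and without WT replicates 4, 5 or 6 it was 0.056, 0.0528 and 0.0536. Without the 2 established males it was -0.76 with an adjusted p of 0.0596. The direction held in each case. Tendon cell markers moved with it, since their 8 genes summed to 63570 to 132100 CPM in established WT and 2744 to 55700 CPM in established Fosl-2(Tg) mice, with 3 of the 8 called lower. Of all genes tested in this comparison, 3.37% were called lower and 50.7% had a log2 difference above 0. Scx, which encodes the transcription factor of the tendon lineage, fell by 1.27 ± 0.34 (log2, SE; edgeR adjusted p = 0.0444) and Tnmd, which encodes tenomodulin, fell by 2.03 ± 0.53 (adjusted p = 0.0386). Replicates 1 and 5 held the lowest tendon marker levels and were also among the 3 lowest for Eln. Without these 2 mice Eln differed by -0.68 with an adjusted p of 0.058. Smooth muscle markers are a set from another cell type that makes elastin. They summed to 315.5 to 442.1 CPM in established WT and 160.1 to 346.2 CPM in established Fosl-2(Tg) mice. Of these 7 genes, 5 had a log2 difference below 0 and 2 above, and 1, Acta2, was called lower. Myh11 was at 1.409 to 6.147 CPM in WT and 1.015 to 10.68 CPM in Fosl-2(Tg) mice (-0.00065 ± 0.53, edgeR adjusted p = 0.999). Cartilage markers summed to 35.47 to 61.57 CPM in established WT and 4.763 to 37.57 CPM in established Fosl-2(Tg) mice. Of the 5 listed, 3 were tested, of which 2 were called lower. The other 1 went the other way, with a log2 difference of 1.095 that was not called. The part of any of these cell types in the Eln result was not tested. The span of Eln overlaps that of Gm30003, a long non-coding RNA gene on the opposite strand. The strand setting of the counting is not stated, so reads from exon bases of both genes could not be told apart. Whether their exons share bases was not examined. The spans of Fbn1, Mfap5, Efemp1 and Efemp2 likewise overlap genes on the opposite strand.

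**Figure D2:**
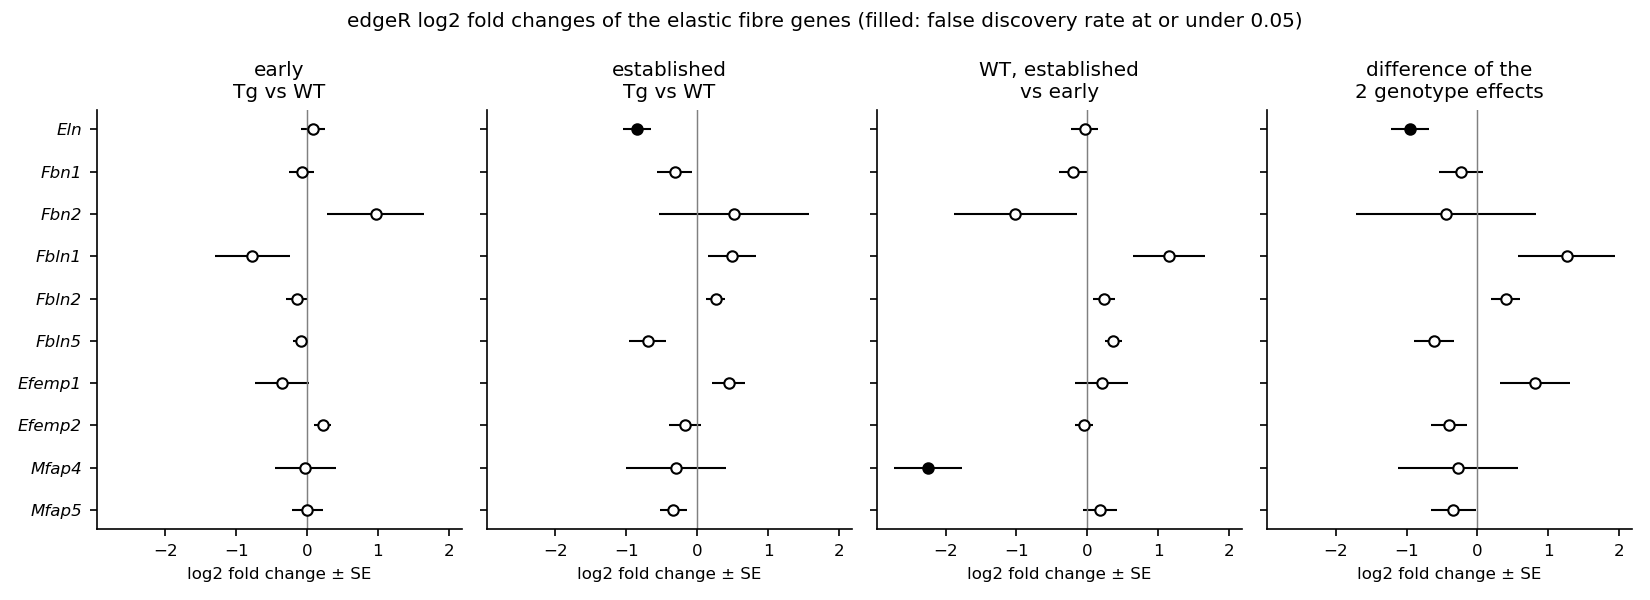
Log2 fold changes (horizontal axes, shared scale) with 1 SE of the 10 genes in the early and the established genotype comparison, in WT mice with stage, and for the difference of the 2 genotype effects; filled points were called. Eln is filled at -0.85 in the established comparison and at -0.95 for the difference, and Mfap4 at -2.25 with stage.

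Both fibrillins overlapped between the genotypes at each stage. Fbn1 forms the microfibril backbone in adult tissue. It was at 1210, 1350 and 2576 CPM (lowest, median, highest) in established WT and 664.2, 1165 and 2021 CPM in established Fosl-2(Tg) mice, a difference of -0.31 ± 0.25 (log2, SE; edgeR adjusted p = 0.433). The early values were 1237 to 2647 CPM in WT and 1105 to 2662 CPM in Fosl-2(Tg) mice (-0.08 ± 0.18, adjusted p = 0.962). One WT mouse, replicate 2 of the established cohort, held 2576 CPM where the next WT mouse held 1645 CPM.

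Fbn2, the fibrillin made mostly during development, was low and uneven. Its level spanned 0.666 to 36.42 CPM in early WT mice and 3.516 to 42.98 CPM in early Fosl-2(Tg) mice, 54.7-fold and 12.2-fold from the lowest to the highest mouse. In established WT mice it was at 0.4464 to 11.38 CPM. In established Fosl-2(Tg) mice replicates 6 and 7 held 24.77 and 24.66 CPM while the other 5 lay between 0.2165 and 1.413 CPM. With this spread the established difference was 0.52 ± 1.05 (log2, SE), with an interval of -1.54 to 2.59, and neither sign can be read from it. Early Fosl-2(Tg) and WT differed by 0.97 ± 0.68 (adjusted p = 0.863). The gene lies on chromosome 18 and overlaps 2 non-coding genes on the opposite strand.

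The 5 fibulins did not move together. Fbln5, which tethers elastin to cells and microfibrils, lay at 57.62, 87.38 and 98.46 CPM (lowest, median, highest) in established WT mice and at 20.71, 44.15 and 80.89 CPM in established Fosl-2(Tg) mice. Of the 7 Fosl-2(Tg) mice, 3 reached the range of the WT mice. The difference was -0.70 ± 0.26 (log2, SE) with an unadjusted p of 0.0186, which did not pass after adjustment (edgeR adjusted p = 0.113). An unadjusted p under 0.05 was reached by 26.6% of all genes in this comparison. It passed with 5 of the 13 alternative settings, with adjusted p between 0.0286 and 0.0489, among them a single fit of the 4 groups and sex as a covariate. In WT mice Fbln5 differed with stage by 0.37 ± 0.12 (adjusted p = 0.0896), from a mean of 65.0 ± 7.73 (SD, n = 7) to 83.7 ± 15.0 CPM (SD, n = 6), and passed at 0.0294 without the established WT male, replicate 5.

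Fbln2, a basement membrane and microfibril binding fibulin, was at 423.9 to 659.1 CPM in established WT and 517.6 to 796.2 CPM in established Fosl-2(Tg) mice (0.26 ± 0.13, edgeR adjusted p = 0.215). Efemp1, which encodes fibulin-3, was at 16.78 to 29.57 CPM in established WT and 14.43 to 46.12 CPM in established Fosl-2(Tg) mice (0.45 ± 0.23, adjusted p = 0.237). Efemp2 encodes fibulin-4, which brings lysyl oxidase to tropoelastin and without which elastic fibres do not form. It was at 26.08 to 37.3 CPM in established WT mice and spread from 12.2 to 41.76 CPM in established Fosl-2(Tg) mice (-0.17 ± 0.22, adjusted p = 0.645). The early differences of these 3 genes were -0.14, -0.36 and 0.22 on the log2 scale, each with an edgeR adjusted p of 0.839 or more.

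Fbln1, the fibulin found along elastin and fibronectin, lies on chromosome 15 (GRCm39, 85090150 to 85170737, plus strand). It was at 210.9, 516.6 and 723.6 CPM (lowest, median, highest) in established WT and at 260.1, 714.9 and 1070 CPM in established Fosl-2(Tg) mice (0.49 ± 0.34, edgeR adjusted p = 0.361). In the early cohort it took 2 levels that followed the library number and not the genotype. The 4 libraries with the lowest numbers held 366.2 to 487.7 CPM, and the other 11 held 57.68 to 143.3 CPM. Both genotypes occur at both levels, with 3 WT mice and 1 Fosl-2(Tg) mouse in the high set. The early genotype difference of -0.77 ± 0.53 (log2, SE; adjusted p = 0.861) became 0.15 (adjusted p = 0.929) without those 4 libraries. The stage difference in WT mice was 1.16 ± 0.51 (adjusted p = 0.204) with all libraries and 2.60 (adjusted p = 0.00201) with early WT replicates 1 to 3 left out. Those 3 mice held the highest Fbln1 levels of the early WT group, so a larger rise follows from leaving them out. They were also picked after seeing the data, so the second value is no independent support for a rise. In the same 4 libraries Mfap4 was lower than in the other 11, at 31.17 to 88.3 against 93.28 to 417.9 CPM, while Fbn2 and Eln overlapped the others only at the edge, with highest values of 3.516 and 242.5 CPM against lowest values of 3.419 and 241.5 CPM. Macrophage markers summed to 721.4 to 950.1 CPM in the 4 and 484.1 to 818 CPM in the 11, and cartilage markers to 41.34 to 55.33 and 50.93 to 312.8 CPM. Whether these take part in the Fbln1 levels was not tested. The call on Eln for the difference of the 2 genotype effects also rested on these libraries, since without them it was -0.77 with an adjusted p of 0.13. It was also lost in 9 of 28 fits with 1 library left out, with adjusted p up to 0.0581.

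**Figure D3:**
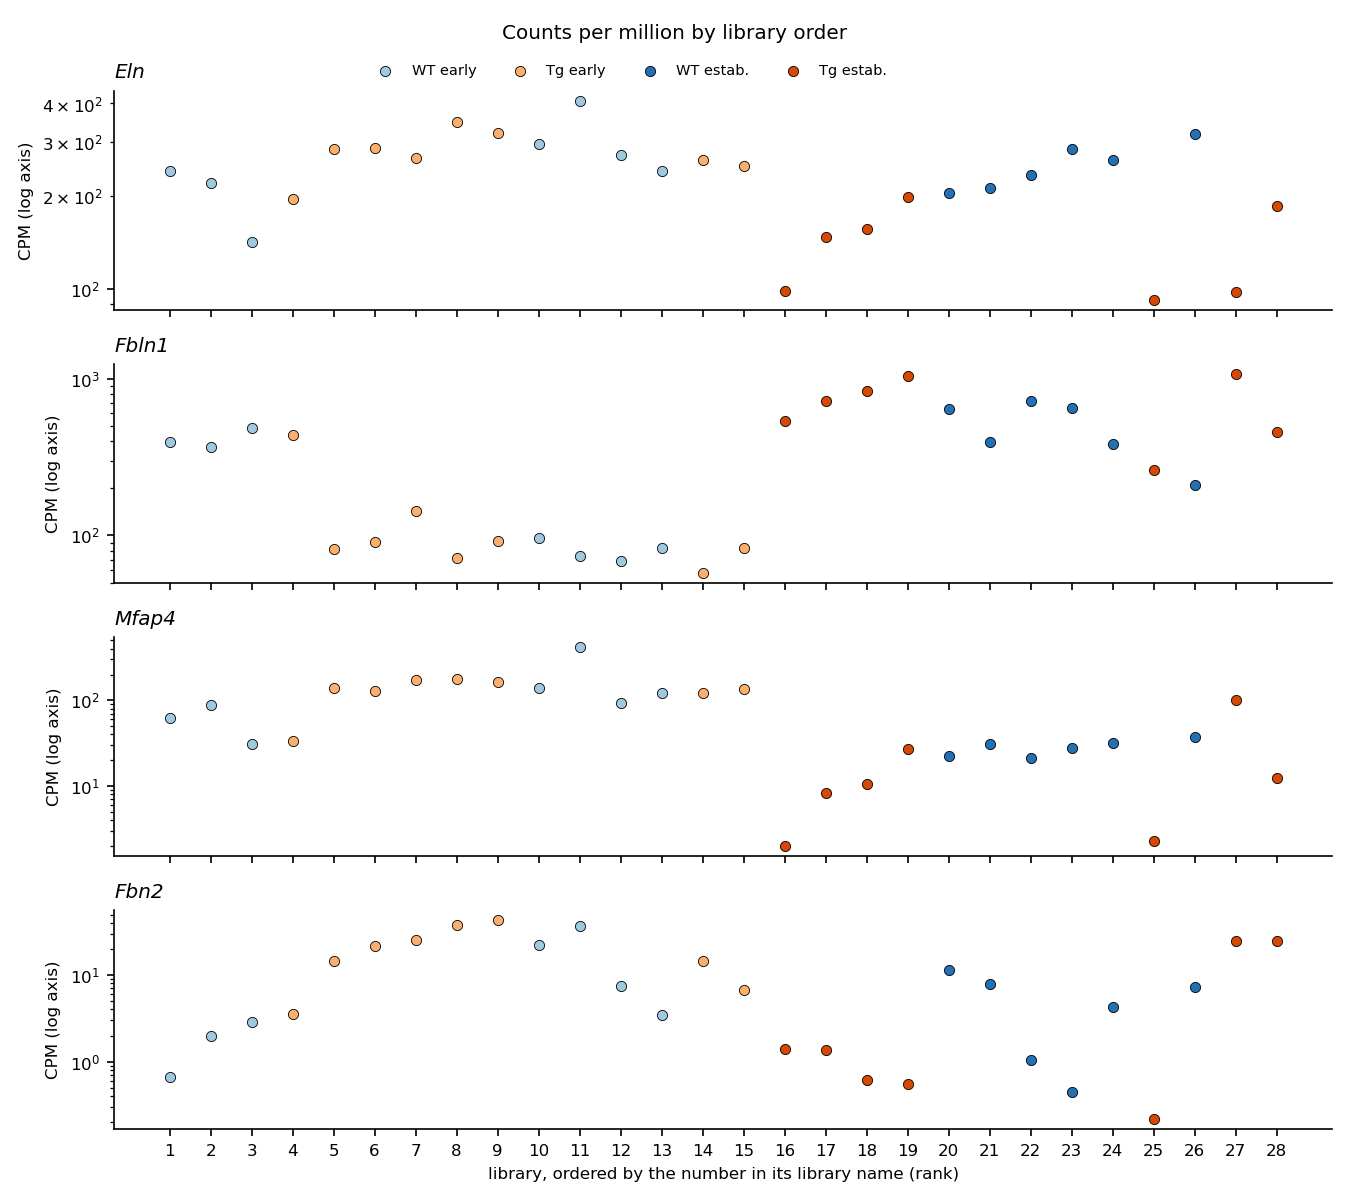
CPM (vertical axes, log scale) of Eln, Fbln1, Mfap4 and Fbn2 in the 28 libraries, ordered from left to right by the number in the library name and coloured by group. Fbln1 in the first 4 libraries is at 366.2 to 487.7 CPM and in the next 11, also early, at 57.68 to 143.3 CPM.

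Fosl-2 acts through AP-1 sites, so the start regions of the members were read for such letters. RefSeq windows on GRCm38.p6, with 250 bases before and 50 after a start, were at hand for 6 of the 10 genes, as 10 windows (Fbn1, Fbln1, Fbln2, Fbln5, Efemp1 and Efemp2); Eln, Fbn2, Mfap4 and Mfap5 had none in the table. The strict AP-1 letters TGACTCA or their reverse complement TGAGTCA were in 0 of the 10 windows and in 5.2% of all 32851 windows. The looser TGANTCA, which includes the strict form and reads the same on both strands, was in 1 of the 10 windows and in 7.81% of all. The E-box letters CAGCTG, their own reverse complement and 1 of the forms bound by factors such as Scx, were in 3 of the 10 windows and in 16.3% of all. Of these 3, 2 are overlapping Fbln1 windows that hold the same site, so that there are 2 sites, in Fbn1 and Fbln1. The windows of Efemp1 and Fbln1 are shown, as the only member window with AP-1-like letters and as that of the member with 2 levels in the early cohort. They lie at chr11:28852955-28853254 and chr15:85205699-85205998, both on the plus strand, and capitals mark TGANTCA in Efemp1 and CAGCTG in Fbln1.
Efemp1: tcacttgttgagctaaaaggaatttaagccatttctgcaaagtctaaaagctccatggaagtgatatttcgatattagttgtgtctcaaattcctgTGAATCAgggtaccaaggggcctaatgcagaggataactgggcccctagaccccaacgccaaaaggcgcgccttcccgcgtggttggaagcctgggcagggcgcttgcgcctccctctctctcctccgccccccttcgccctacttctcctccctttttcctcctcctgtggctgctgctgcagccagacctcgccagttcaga
Fbln1: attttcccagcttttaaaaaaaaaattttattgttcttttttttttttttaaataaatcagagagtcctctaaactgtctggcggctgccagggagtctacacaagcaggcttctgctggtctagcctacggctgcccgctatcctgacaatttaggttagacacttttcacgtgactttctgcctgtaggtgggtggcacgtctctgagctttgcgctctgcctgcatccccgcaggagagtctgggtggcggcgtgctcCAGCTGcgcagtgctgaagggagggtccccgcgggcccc
The match in Efemp1 starts 154 bases before the annotated start. The level of Efemp1, as given above, did not pass the test between the genotypes at either stage, and a match of letters is no evidence of binding.

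Of the microfibril-associated genes, Mfap4 fell with stage in WT mice. It encodes a fibrinogen-like glycoprotein that binds elastin, fibrillin and collagen, and lies on chromosome 11 (GRCm39, 61376212 to 61379727, plus strand). It was at 31.17, 93.28 and 417.9 CPM (lowest, median, highest) in the 7 early WT mice and at 21.33, 29.2 and 37.24 CPM in the 6 established WT mice. Only early WT replicate 3, at 31.17 CPM, lay within the established range. The mean went from 136.3 ± 129.3 (SD, n = 7) to 28.6 ± 6.10 CPM (SD, n = 6), and the log2 fold change was -2.25 ± 0.48 (SE), or 4.77-fold lower (edgeR adjusted p = 0.0209). This was 1 of 10 members called, where 4.74% of the 15645 genes tested were called, 1.98% upwards and 2.76% downwards. None of the 10 genes had stage groups that did not overlap, where 2.25% of all genes did. The adjusted p was 0.056, 0.058 and 0.0555 without established WT replicates 1, 3 and 4, and the direction held. With the early libraries of the lowest numbers left out the log2 fold change was -2.78 (adjusted p = 0.00238). Those libraries held the lowest Mfap4 levels of the early WT mice, at 31.17 to 88.3 CPM, so a larger fall follows from leaving them out. They were also picked after seeing the data, so this value is no independent support for the call. Cartilage markers summed to 41.34 to 312.8 CPM in early WT and 35.47 to 61.57 CPM in established WT mice. Of the 3 tested, 2 had a log2 difference below 0 and 1 above, with 1 called lower. Tendon markers summed to 122800 to 374200 CPM in early WT and 63570 to 132100 CPM in established WT mice. Of these 8 genes, 6 lay below 0 and 2 above, with 2 called lower. Col1a1 alone was at 101100 to 350400 CPM in early WT and 44270 to 100100 CPM in established WT mice. The part of these markers in the Mfap4 result was not tested. Mfap4 overlaps the protein-coding gene Mapk7 on the opposite strand.

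Between the genotypes Mfap4 overlapped at both stages. In established Fosl-2(Tg) mice it was at 1.992, 10.44 and 100.5 CPM (lowest, median, highest), so that 5 of the 7 lay below the lowest WT mouse and 1, replicate 6, lay above the highest. The difference was -0.30 ± 0.71 (log2, SE; edgeR adjusted p = 0.811), with an interval of -1.69 to 1.09. Without replicate 6 it was -1.44 (adjusted p = 0.0892). Early Fosl-2(Tg) mice were at 33.12 to 175.3 CPM (-0.03 ± 0.43, adjusted p = 0.996). Mfap5, a small glycoprotein of the microfibril that binds fibrillin, varied less than Mfap4, at 103 to 235.2 CPM in established WT and 86.95 to 149.8 CPM in established Fosl-2(Tg) mice (-0.33 ± 0.19, adjusted p = 0.284). Its early difference was 0.01 ± 0.22 (adjusted p = 0.998).

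The early genotype comparison as a whole was nearly empty. With edgeR 0 of the 10 genes were called and 0 had an unadjusted p under 0.05, and DESeq2 and limma voom called 0 as well. Of the 15138 genes tested, 6.06% had an unadjusted p under 0.05, and 0.0396% were called, 6 in number (11 when the mice were blocked by replicate number). The 2 genotypes did not overlap for 0.0528% of all genes and for none of the 10. The median log2 difference of the 10 genes was -0.05, against -0.01 over all genes tested. In the established comparison the 10 genes had a median of -0.24, with 6 below and 4 above 0, against 0.01 over all genes, of which 50.7% lay above 0. With stage in WT mice their median was 0.07, with 5 on each side, against 0.01 over all genes, of which 52.4% lay above 0.

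Of the enzymes that crosslink elastin, Loxl2 fell in the established Fosl-2(Tg) tendon and with stage in WT mice. Of 5 lysyl oxidases tested, all 5 had a log2 difference below 0 in the established Fosl-2(Tg) tendon, with a median of -0.51, and 1 was called. Over all genes in this comparison 50.7% lay above 0, 6.51% were called and 2.33% were lower with no overlap. With stage in WT mice 4.74% of all genes were called, and 7.43% for the difference of the 2 genotype effects. Loxl2 went from 521.5 to 938.2 CPM in WT to 79.03 to 326.3 CPM in Fosl-2(Tg) mice with no overlap (-1.46 ± 0.28, edgeR adjusted p = 0.0151), and it was called under each of the 13 alternative settings and in each of the 13 fits with 1 library left out. In WT mice Loxl2 also fell with stage (-1.32 ± 0.29, adjusted p = 0.0232), from 709.8 to 2834 CPM to the established range just given. That call was lost without established WT replicates 1, 3 or 4, at adjusted p of 0.0588, 0.0642 and 0.0573, and with the replicate number as a block, at 0.0668. Without the early libraries of the lowest numbers it was -1.73 (adjusted p = 0.0018). Lox, the main lysyl oxidase, fell with stage from a mean of 3563 ± 867 (SD, n = 7) to 2055 ± 529 CPM (SD, n = 6) (-0.79 ± 0.20, adjusted p = 0.0415). This call is fragile, since it held without early WT replicates 2 or 3 or established WT replicate 1 and was lost in the other 10 of 13 fits with 1 library left out, with adjusted p up to 0.101. With the block it was 0.116, and without the early libraries of the lowest numbers 0.0111. Between the genotypes Lox differed by -0.25 ± 0.19 in the established cohort and was not called. The difference of the 2 genotype effects was called for Loxl2 (-1.95 ± 0.41, adjusted p = 0.00702, and 0.0295 without the 4 early libraries of the lowest numbers) and for Loxl3 (-0.70 ± 0.22, adjusted p = 0.0477). The call on Loxl3 was lost in 19 of 28 fits with 1 library left out, with the block (0.0724) and without those 4 libraries (0.154).

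Of 10 enzymes listed as able to cleave elastin, 5 were tested, and 2 of these were called in the established comparison in opposite directions. Over all genes in this comparison 6.51% were called, 3.14% upwards and 3.37% downwards, and 50.7% had a log2 difference above 0. Ctss, which encodes cathepsin S, an elastase of macrophages and antigen-presenting cells, rose from 31.33 to 56.5 CPM in WT to 57.85 to 174.1 CPM in Fosl-2(Tg) mice with no overlap (1.13 ± 0.25, edgeR adjusted p = 0.0228), a separation upwards that 1.48% of all genes showed. The adjusted p was 0.0545 and 0.0515 without WT replicates 1 and 4, 0.0544 without the 2 established males and 0.0612 without Fosl-2(Tg) replicates 1 and 5. Macrophage markers summed to 448.7 to 668 CPM in WT and 569.3 to 911.7 CPM in Fosl-2(Tg) mice, all 7 with a log2 difference above 0 and 1 called, and their part in the Ctss result was not tested. Ctsk, which encodes cathepsin K, fell from 174.3 to 266.2 CPM to 52.75 to 179.4 CPM (-1.19 ± 0.32, adjusted p = 0.0442), a call that held without Fosl-2(Tg) replicates 6 or 7 and was lost in the other 11 of 13 fits with 1 library left out, with adjusted p up to 0.0878. The genotype effect differed between the stages by 1.43 ± 0.30 for Ctss (adjusted p = 0.00693), and this was called under each of the 12 alternative settings, at 0.0295 without the 4 early libraries of the lowest numbers. For Ctsk it differed by -1.36 ± 0.37 (adjusted p = 0.0265), a call lost without those 4 libraries (-1.15, adjusted p = 0.138) and without established Fosl-2(Tg) replicates 1 and 5 (-1.14, adjusted p = 0.0717). Ctsl, which encodes cathepsin L, fell with stage in WT mice (-0.96 ± 0.21, adjusted p = 0.0237), a call lost without established WT replicates 1, 3 or 4 at adjusted p of 0.0588, 0.0624 and 0.0572 and kept at 0.00258 without the early libraries of the lowest numbers.

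**Figure D4:**
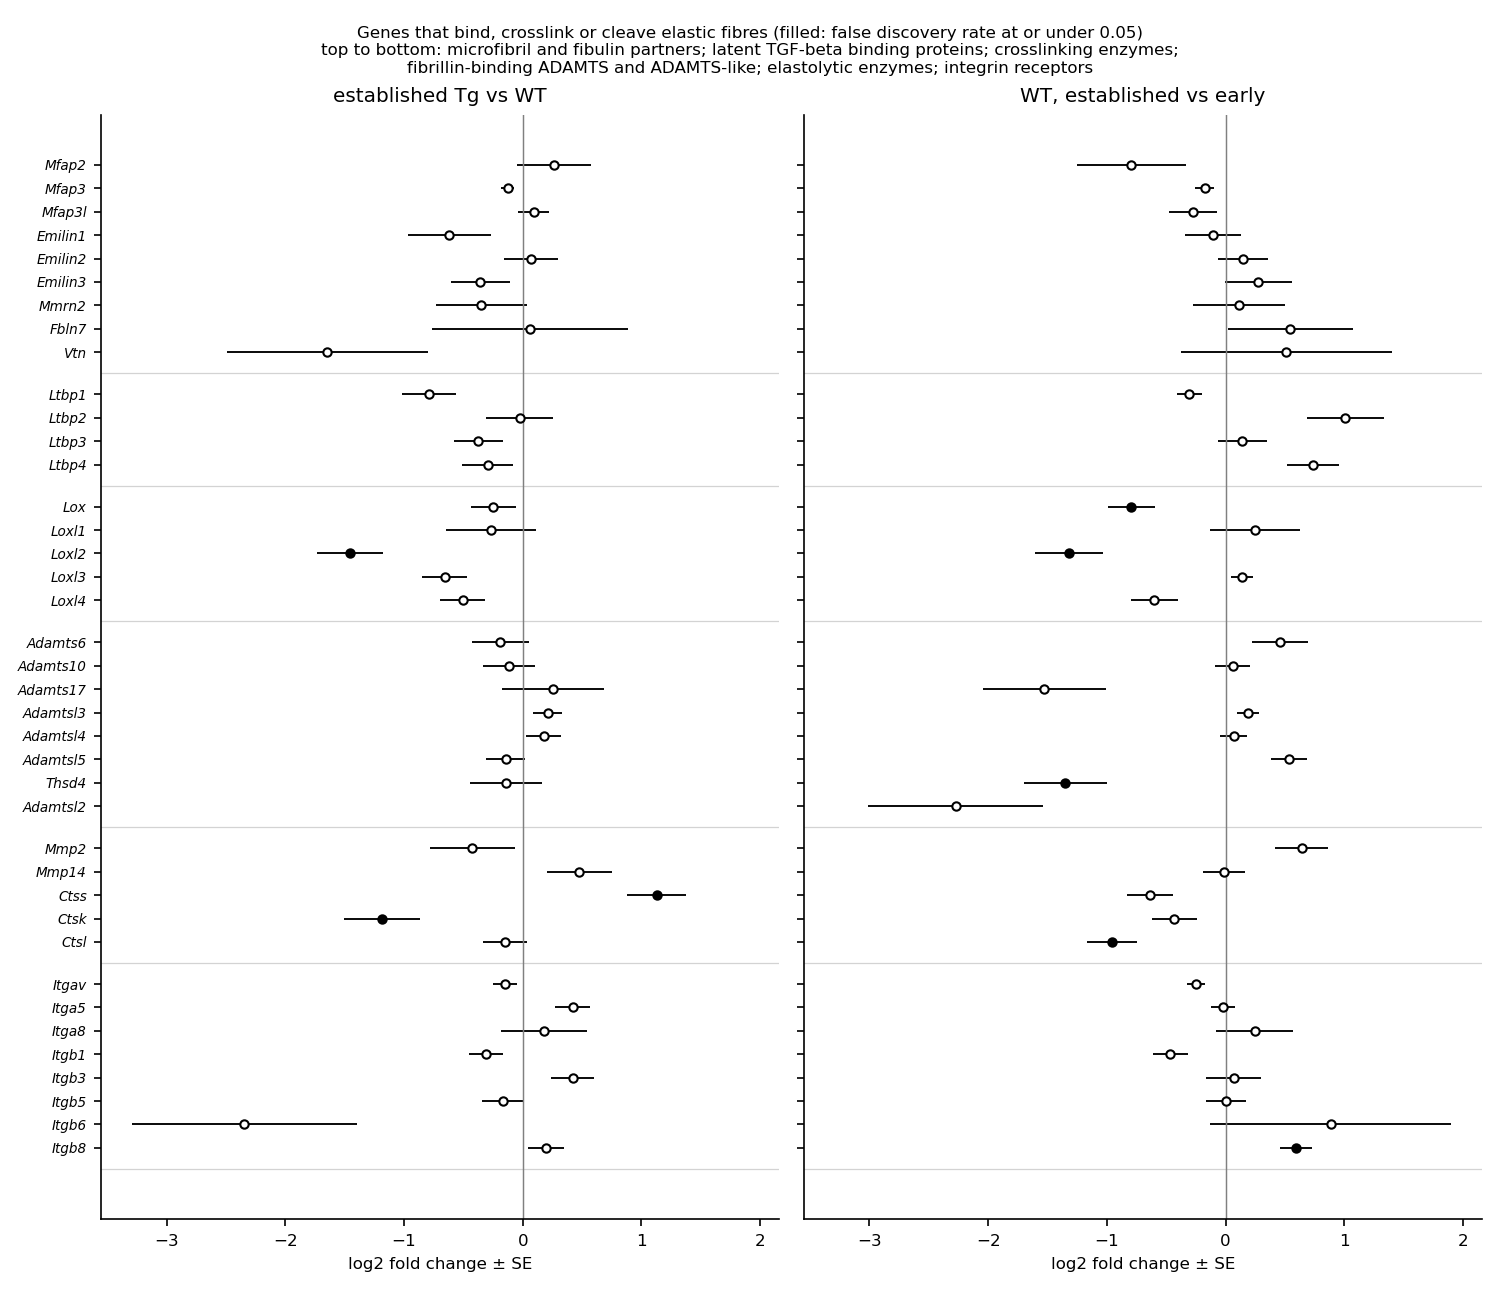
Log2 fold changes (horizontal axes, shared scale) with 1 SE of the tested genes of 6 lists that bind, crosslink or cleave elastic fibres, for established Fosl-2(Tg) against WT (left) and for WT with stage (right); filled points were called. Loxl2 is filled on both sides, at -1.46 and -1.32, and Ctss and Ctsk are filled at 1.13 and -1.19 on the left.

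Few of the proteins that bind microfibrils passed a test. Of 10 microfibril and fibulin partners, such as the Emilins, 9 were tested and 0 were called by edgeR in any of the 4 comparisons, with 2, 1, 1 and 1 of them at an unadjusted p under 0.05 in the early, established, stage and interaction tests, where 6.06%, 26.6%, 22% and 25.3% of all genes were. None of the 4 latent TGF-β binding proteins was called between the genotypes within a stage, although all 4 had a log2 difference below 0 in the established cohort and 1 had an unadjusted p under 0.05. Over all genes in the established cohort 50.7% lay above 0 and 26.6% had an unadjusted p under 0.05. The difference of the 2 genotype effects was called for Ltbp1 (-0.89 ± 0.24, edgeR adjusted p = 0.0262), which was at 347.7 ± 49.7 CPM in established WT (SD, n = 6) and 200.5 ± 72.5 CPM in established Fosl-2(Tg) mice (SD, n = 7). Without the 4 early libraries of the lowest numbers its adjusted p was 0.0936. Of 8 fibrillin-binding ADAMTS and ADAMTS-like proteins, Thsd4 was called with stage in WT mice (-1.35 ± 0.35, adjusted p = 0.0435), at a mean of 6.84 and 2.67 CPM, and this call held without early WT replicates 2 or 7 or established WT replicate 5 and was lost in the other 10 of 13 fits, with adjusted p up to 0.102, and was kept at 0.0345 without the early libraries of the lowest numbers. Of 8 integrin subunits that bind elastic fibre proteins, Itgb8 rose with stage from 10.1 ± 1.20 (SD, n = 7) to 15.3 ± 3.33 CPM (SD, n = 6) (0.59 ± 0.13, adjusted p = 0.0252). It was lost without early WT replicates 4 or 5 and established WT replicates 3 or 4, at adjusted p between 0.0531 and 0.0642, and kept at 0.0376 without the early libraries of the lowest numbers. Over all genes 4.74% were called with stage and 7.43% for the difference of the 2 genotype effects.

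Some members varied together between mice of a group. After the 4 group means had been subtracted, the log2 levels of Mfap5 followed those of Efemp1 (Pearson r = 0.798) and Fbn1 (0.793) over the 28 libraries. Fbn1 also followed Fbln5 (0.63) and Efemp1 (0.599), so that the members did not fall into separate sets. Mfap4 followed Fbln5 (0.725) and Efemp2 (0.682), and of the other members Eln was closest to Mfap4 (0.551) and Fbn1 (0.425), with a negative value against Fbln1 (-0.423). Fbn1 and Mfap5 also moved with the mean of the sheath and adventitial fibroblast markers (0.838 and 0.75). Efemp2, Fbln5 and Mfap4 moved with the tendon fibroblast markers (0.812, 0.796 and 0.732). With the cartilage markers Mfap4 reached 0.787, Fbn2 0.76 and Eln 0.649. These are descriptions over libraries that differ in depth and muscle content. Only the group means were removed. The difference between the 4 early libraries of the lowest numbers and the other 11 therefore stays in these values and in those of the next paragraph. In those 4 Fbln1 was higher and Mfap4 lower. The part of this difference in the correlations was not tested.

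Among 11377 other genes with a mean of at least 5 CPM, the gene whose pattern over the 28 libraries was closest to Eln was Slc16a1 (r = 0.816), a lactate transporter. Closest to Fbn1 was Pi16 (0.931), itself one of the sheath markers, followed by Emilin2 (0.916). Fbn2 was closest to Postn (0.911), which encodes periostin, and Fbln1 to Ccdc3 (0.929) and Taf4 (0.92). Efemp1 was closest to Tek (0.935), Efemp2 to Plod1 (0.922), a collagen lysyl hydroxylase, and Mfap4 to Igsf10 (0.916). Mfap5 was closest to Aspn (0.918), which encodes asporin, a small leucine-rich proteoglycan. Fbln5 and Fbln2 had Poglut3 (0.878) and Mfhas1 (0.796) as their nearest genes.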

How the data were processed

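RNA was taken from homogenized tail tendon fascicles, depleted of rRNA and sequenced, 1 library per mouse (28 libraries). Per the labels and the study's methods, STAR alignment to GRCm39 and featureCounts with GENCODE genes gave the deposited raw read counts. The strand setting and the treatment of multimapping reads are not given in the sources used here. Groups come from the labels. Of 25719 identifiers, 25505 were named with GENCODE M39, from which exon lengths were also taken, and 214 had no name.

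Counts were filtered with filterByExpr (minimum count 10, minimum total 15), scaled by TMM and tested with edgeR 4.0.16 (R 4.3.3) by quasi-likelihood with no covariate, the false discovery rate (Benjamini-Hochberg, every gene tested) being held at 0.05. The interaction was fitted over the 4 groups. Each SE is the size of the log2 fold change over the square root of the test's F statistic. Intervals of 95% were set from this SE with the normal distribution, which makes them narrower than the test. For Fbln2 in the established comparison the interval was 0.0074 to 0.515 although edgeR's unadjusted p was 0.0633. DESeq2 1.42.0, limma 3.58.1, other scalings, filters, covariates and left-out libraries were alternatives. The same code was tested on simulated data. Log2 CPM used a prior count of 2. No 2 libraries agreed within sampling noise (lowest chi-square per degree of freedom 7.42). The counts are of reads without molecular identifiers, and their number limits precision, most for Fbn2 with 3 to 805 reads per library.

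The deviations of same-numbered early libraries correlated at 0.14 to 0.404 in 7 of 7 pairs. However, 0 of the 7 WT libraries correlated best with their own number, so these values do not show that the numbers pair early mice. In the established cohort the correlations were -0.225 to 0.689. The labels do not state a pairing in either cohort. The members and gene lists were chosen with earlier results of these data known. All 10 members are named in each comparison. Of the other lists, genes are named that passed the test, at most 3 per list, as are the defining cell type markers and, for each member, the genes with the closest pattern.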

Additional observations from a re-analysis of the deposited data

Results flagged for a closer look

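Of the 40 sets of levels, 10 genes in 4 groups, 6 held a mouse far from the others of its group by Dixon's test at the 95% level, of which chance flags about 1 in 20. Mfap4 appeared 3 times. Early WT replicate 5 held 417.9 CPM where the next mouse held 138.8 CPM, early Fosl-2(Tg) replicate 1 held 33.12 CPM below a next value of 120.7 CPM, and established Fosl-2(Tg) replicate 6 held 100.5 CPM above a next value of 27.35 CPM. Fbln1 in early Fosl-2(Tg) replicate 1 was at 434.1 CPM, with the next mouse at 143.3 CPM. That library is 1 of the 4 with the lowest library numbers. Fbn1 was at 2662 CPM in early Fosl-2(Tg) replicate 4, next 1824 CPM, and at 2576 CPM in established WT replicate 2, next 1645 CPM.

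The genotype effect on Eln differed between the stages by -0.95 on the log2 scale in the test of the difference itself (edgeR adjusted p = 0.0329). It was 0.09 at the early stage and -0.85 at the established one.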

How the results depend on the processing

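The directions of Eln (established comparison and difference of the genotype effects) and of Mfap4 (WT with stage) held under every alternative run. The number of members called did not. In the established comparison, where 1 was called, 2 were called with limma voom, with the skeletal muscle score or sex as a covariate, and with 1 fit of the 4 groups, the second being Fbln5 each time. With library totals 3 were called (Eln, Fbln2 and Efemp1), and 0 without the 2 established males or without Fosl-2(Tg) replicates 1 and 5. With 1 library left out the count was 0 to 1. For WT with stage 2 were called with limma voom, with library totals and without the established WT male (Mfap4 and Fbln5), and 2 without the early libraries of the lowest numbers (Mfap4 and Fbln1). The count was 0 with males only, 7 against 1 mouse, and 0 to 2 with 1 library left out. For the difference of the genotype effects 3 were called with library totals (Fbln1, Fbln2 and Efemp1). It was 0 without the 2 established males, without Fosl-2(Tg) replicates 1 and 5 and without the early libraries of the lowest numbers, and 0 to 1 with 1 library left out, lost in 9 of 28 such fits (early WT replicates 1, 2 and 3, early Fosl-2(Tg) replicates 5 and 6, established Fosl-2(Tg) replicates 1 and 5 and established WT replicates 4 and 6, at adjusted p of 0.051 to 0.0581). The early count was 0 throughout. The sets without early libraries or without Fosl-2(Tg) replicates 1 and 5 were chosen after seeing the data. Among early WT mice the libraries of the lowest numbers held the highest Fbln1 and the lowest Mfap4 levels, so leaving them out enlarges both stage differences.

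The replicate block called 2 members in the established comparison (Eln and Fbln5), where Fbn2 turned to -1.35. It left the count of 0 in the early cohort as it was, with Mfap4 at 0.23 and Mfap5 at -0.040, and the 1 call each for WT with stage and for the difference of effects. Of the other genes named it lost the stage calls on Loxl2 (-1.19, adjusted p = 0.0668) and Lox (-0.80, adjusted p = 0.116) and the difference of effects for Loxl3 (-0.73, adjusted p = 0.0724). Over all genes the block gave 924 calls in the established comparison, in which 2 of 6 WT libraries correlated best with their own number, so that the shared number is at most a hint of pairing.

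Library totals moved the median log2 difference of all genes to -0.19 (early), 0.33 (established), 0.23 (WT with stage) and 0.53 (difference of effects). The share of higher genes among all calls went from 48.3% to 95.9% in the established comparison, from 41.8% to 88.1% with stage and from 46.1% to 96.9% for the difference of effects, and is to be read against those shifts. Without the 2 established males it was 35.9% in the established comparison. Members that were not called turned direction with library totals: Eln -0.057 and Mfap5 -0.17 (early), Efemp2 0.14 (established), Eln 0.23, Fbn1 0.012 and Efemp2 0.20 (WT with stage), and Fbn1 0.26, Efemp2 0.079, Mfap4 0.073 and Mfap5 0.16 (difference of effects).

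Other turns were likewise of members not called. Without the early libraries of the lowest numbers the early values were -0.062 for Eln, 0.15 for Fbln1, 0.0012 for Fbln2 and -0.22 for Mfap5, those with stage -0.12 for Efemp1 and -0.11 for Mfap5, and the differences of effects 0.082 for Fbn2 and 0.081 for Mfap4. Without Fosl-2(Tg) replicates 1 and 5 Efemp2 was 0.052 and Mfap4 0.14 in the established comparison and Mfap4 0.16 for the difference of effects. With males only Eln was 0.025, Fbln5 -0.16 and Mfap5 -0.23. With limma voom early Mfap4 was 0.49 and Eln with stage 0.0091. The skeletal muscle score gave 0.0034 for Fbln2 and -0.10 for Mfap5 (early) and 0.11 for Fbn2 (difference of effects), and 1 fit of the 4 groups -0.000309 for early Mfap5. With 1 library left out, the values of members that turned at least once spanned -0.013 to 0.24 for Eln, -0.20 to 0.033 for Fbn1, -0.20 to 0.59 for Mfap4 and -0.16 to 0.15 for Mfap5 (early), -0.18 to 0.89 for Fbn2 (established), and -0.14 to 0.087 for Eln and -0.11 to 0.022 for Efemp2 (stage). The causes were not tested.

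Calls over all genes ranged from 0 to 25 against 6 (early), from 361 to 7544 against 1032 (established), from 0 to 2834 against 742 (stage) and from 150 to 8091 against 1195 (difference of effects). The 2834 came without the early libraries of the lowest numbers, as did the 0 in the early cohort and the 150, while the 0 with stage came with males only. Read numbers limit Fbn2 most.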
